A study of Mus musculus with 17 samples.

Results

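RNA abundance after 4 days of doxycycline was compared with that of untreated mice that the labels give the same pair of transgenes, across all genes measured. Both groups were male FVB/N mice of genotype dTg-211, which carry a CamK driver and a PTRE-miR-211 transgene, and polyadenylated RNA came from dissected frontal cortex. The doxycycline group (dTgDox) had 3 libraries, and the untreated group (dTg) had 6 libraries, replicates 2 to 7. A further 6 libraries came from untreated mice with the CamK driver alone (Ct), and these served as a second set of levels. The 9 libraries compared are 9 of the 17 deposited, chosen by their labels. Replicate 1 of dTg was left out because its file is identical, gene for gene, with the file labelled as lacking the driver (NTg). An earlier pass over these data also described it as cerebellum-like, which was not measured here. The labels give no age, no statement that each library is a separate animal, and no Ct mice given doxycycline. The drug's own action and the switching off of miR-211 therefore cannot be told apart. P-values measure the spread between these libraries.

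The transgenes form a Tet-off system. A transactivator made under the CamK promoter, which is active in excitatory neurons of the forebrain, binds the tetracycline-response promoter (PTRE) and drives miR-211, and doxycycline prevents that binding. miR-211 is processed from an intron of Trpm1 and shares its seed, the bases that pair with target messages, with miR-204. A microRNA guides the silencing complex to matching sites in 3′UTRs, which lowers target RNA and protein, so release from a microRNA is known to raise its targets. The series title ties miR-211 to cholinergic imbalance and epileptiform activity.

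The mature sequences are shown because the seed, in capitals, defines the sites counted further on. They are from RefSeq (GRCm38.p6), and miR-211-5p lies at chr7:64205831-64205852 on the plus strand.
mmu-miR-211-5p: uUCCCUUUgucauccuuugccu
mmu-miR-204-5p: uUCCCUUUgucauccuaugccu
Mir211 itself was listed at 0 in all 3 dTgDox libraries, against 21.6 FPKM in dTg replicate 2, 24.8 FPKM in dTg replicate 5 and 0 in the other 4 dTg libraries and all 6 Ct libraries. Trpm1 had 0.14 to 0.26 FPKM in dTgDox, 0.14 to 0.34 FPKM in dTg and 0.04 to 0.40 FPKM in Ct. Both genes failed the filter on low values, and mature microRNAs are not seen in polyA RNA, so the switch was not measured. Camk2a, the kinase gene whose promoter the driver is named for, had 759.8, 658 and 723 FPKM in dTgDox, against 594 to 1104 FPKM (median 771) in dTg, and was not called (adjusted p 0.67).

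The depth of the 15 libraries was about 21.1 to 30.2 M reads as estimated from the size of a 1-read step in genes with 1 exon. In 4 of them, dTgDox replicates 1 and 3 and dTg replicates 2 and 5, 32 to 36 such genes sat at 0.5 of a read, against 0 or 1 gene in each of the others, so the values of these 4 step differently. The labels name a pair of flow cells and do not assign libraries to them. The correlation of log2 values across genes was 0.967 to 0.970 between dTgDox libraries, 0.960 to 0.968 between dTg libraries and 0.943 to 0.956 between the groups. The tissue label was checked against markers of brain regions, and the dTgDox libraries stood apart from the untreated ones in several of them. These marker lists were chosen with earlier results of these data known. The mean log2 level of markers of hippocampal CA pyramidal cells was 4.55 to 4.63 in dTgDox, against 3.41 to 3.66 in dTg and 3.48 to 3.68 in Ct. For dentate granule cells it was 3.42 to 3.47 in dTgDox, against 2.45 to 2.70 in dTg and 2.58 to 2.67 in Ct. For upper-layer cortical neurons it was 3.08 to 3.31 in dTgDox, against 3.49 to 3.86 in dTg and 3.43 to 3.85 in Ct. No hippocampus-free subset of dTgDox exists, so its part in the results was not tested.

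After doxycycline, 3183 of 18484 genes tested passed the threshold, 17.2% of them. Of these, 1595 were higher (8.63%) and 1588 lower (8.59%), and 523 changed at least 2-fold (2.83%), 245 of them higher (1.33%) and 278 lower (1.5%). The test was limma on log2(FPKM + 0.5) with Benjamini-Hochberg adjustment over all genes tested and a threshold of 0.05, and each log2 difference is dTgDox minus dTg on that scale with its standard error (SE). The median absolute log2 difference was 0.54 among called genes. The signed median over all genes tested was -0.0037. All 3 dTgDox libraries lay above all 6 dTg libraries in 2147 genes (11.6%) and below them in 2055 (11.1%). Of the genes tested, 584 reached 0.5 FPKM in fewer than 3 dTg libraries and so passed the filter on low values only through dTgDox, and 125 of these were called higher and 0 lower. They had to be high in dTgDox to be tested, so their calls support nothing. Of the genes named, C1ql2, Lct, Lhx9, Mir219a-2, Lamr1-ps1, Cst7, Clec7a, Cd109, Chrm5, Htr4 and Htr5b are among them, and Ncapg2, which was not called. Among the other 17900 genes 1470 were higher (8.2%) and 1588 lower. Genes that passed the filter only through dTg were not set aside in the same way, so the lower counts still hold them. The ribosomal protein and oxidative phosphorylation lists were not sorted by this rule. Without dTgDox replicate 1 the count of called genes was 1644, without replicate 2 it was 2310 and without replicate 3 it was 1711. Within the 4 libraries counted in steps of 0.5 read, 1584 genes were called, and within the other 5, which hold 1 dTgDox library, 127 were called.

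**Figure D1:**
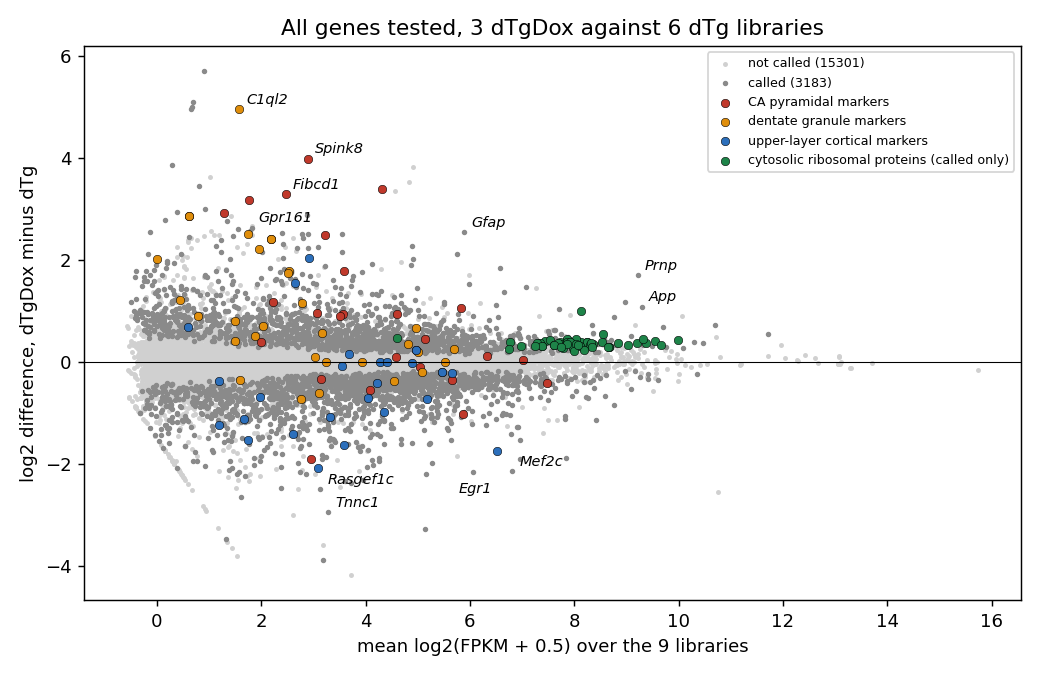
Log2 difference, dTgDox minus dTg, against mean log2 level for the 18484 genes tested (3 dTgDox and 6 dTg libraries). Light grey points were not called and dark grey points were the 3183 called; coloured points are members of 4 lists. Red and orange hippocampal markers lie mostly above 0 and blue upper-layer markers mostly below. Of 84 ribosomal protein genes only the 56 called higher are drawn (green), so their place above 0 was fixed by that choice.

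Markers of hippocampal neurons were called higher more often than all genes tested. An earlier pass over these data had described more hippocampal transcript in dTgDox, so this direction is not independent evidence. Of 30 dentate granule cell markers, all of which were tested, 15 rose (50%, against 8.63% of all genes) and 2 fell, with a median difference of 0.54. Of 28 tested markers of CA pyramidal cells, out of 30 listed, 16 rose (57.1%) and 5 fell, with a median of 0.92. Leaving aside the members that passed the filter only through dTgDox, 12 of 27 dentate and 15 of 27 CA markers rose. Without dTgDox replicate 1 the counts that rose were 11 and 14, and 2 CA markers fell in place of 5. In these counts with a library left out, the filter asked for 2 libraries above the minimum. In bulk tissue, more cells of a type and more RNA per cell cannot be told apart.

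Prox1 (ENSMUSG00000010175, chr1:190118035-190170714), the homeobox factor that specifies granule cells of the dentate gyrus, had 10.1, 11.3 and 9.73 FPKM in dTgDox, against 1.58 to 2.23 FPKM (median 1.82) in dTg and 1.58 to 1.85 FPKM (median 1.75) in Ct. Coordinates here and for other genes are GRCm38. The dTgDox libraries lay close together and none came near either untreated group. Its log2 difference was 2.22 (SE 0.11, adjusted p 3.1e-06). C1ql2 (ENSMUSG00000036907, chr1:120340582-120343174), which codes for a secreted organiser of mossy fibre synapses, had 40.6, 17.4 and 34.02 FPKM in dTgDox, against 0.157 to 1.36 FPKM (median 0.371) in dTg and 0.152 to 1.02 FPKM (median 0.213) in Ct, a difference of 4.96 (SE 0.36). Here replicate 2 of dTgDox was the lowest of its group, and it still lay far above all untreated libraries. C1ql2 passed the filter on low values only through dTgDox, so its call supports nothing. The lactase gene Lct and the desmosome protein Pkp2, both known marks of granule cells, rose by 2.86 and 2.52 log2 units. Lct also passed the filter only through dTgDox.

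Among CA markers, Fibcd1 (ENSMUSG00000026841, chr2:31813290-31846005), whose protein binds acetylated sugars, had 25.1, 23.4 and 25.9 FPKM in dTgDox, against 1.43 to 2.65 FPKM (median 2.19) in dTg, a difference of 3.29 (SE 0.15, adjusted p 2.5e-06). Spink8 (ENSMUSG00000050074, chr9:109812280-109826633), a Kazal-type protease inhibitor, had 60.01, 43.1 and 38.2 FPKM in dTgDox, against 0.721 to 6.82 FPKM (median 2.38) in dTg. Its lowest dTgDox library was several fold above the highest dTg library, and the difference was 3.98 (SE 0.46). Npy2r, a presynaptic neuropeptide Y receptor, rose by 3.18, Lefty1, a secreted inhibitor of Nodal signalling, by 2.92, Homer3, a postsynaptic scaffold, by 2.49 and Nr3c2, the mineralocorticoid receptor, by 1.79. The 5 CA list members that fell were Tyro3, Coch, Ncald, Kcnq5 and Ptpn5.

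The smallest p among genes that are neither pseudogenes nor known by a clone name belonged to a gene outside both lists. Gpr161 (ENSMUSG00000040836, chr1:165295789-165326745), an orphan receptor of the primary cilium that restrains Hedgehog signalling, had 11.8, 11.7 and 10.7 FPKM in dTgDox, against 1.23 to 1.73 FPKM (median 1.39) in dTg, a difference of 2.63 (SE 0.11, adjusted p 1.1e-06). The groups were separated by a gap several times the range of either. Others near the top were Tanc1, a postsynaptic scaffold (2.24), Klk8, the extracellular protease neuropsin (2.47), Lhx9, a LIM homeobox factor (2.79), and Olfml2b, an olfactomedin-like secreted protein (2.16). Among the highest differences were also Cabp7, a calcium sensor on the CA list (3.40), Vwa3b (2.76), Il16 (2.61), Rasd1, a small G protein induced by dexamethasone (2.52), and the neuropeptide Nts (2.56). The call for Nts was lost without any single dTgDox library and without dTg replicate 7. Mir219a-2 (ENSMUSG00000065485, chr2:29845631-29845727), host locus of an oligodendrocyte microRNA, was listed at 30.2, 38.9 and 14.2 FPKM in dTgDox, at 0 in all 6 dTg libraries, and in Ct at 0 in 4 libraries and 12.6 and 16.4 FPKM in the other 2, so no fold is given. Mir219a-2 and Lhx9 passed the filter on low values only through dTgDox.

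**Figure D2:**
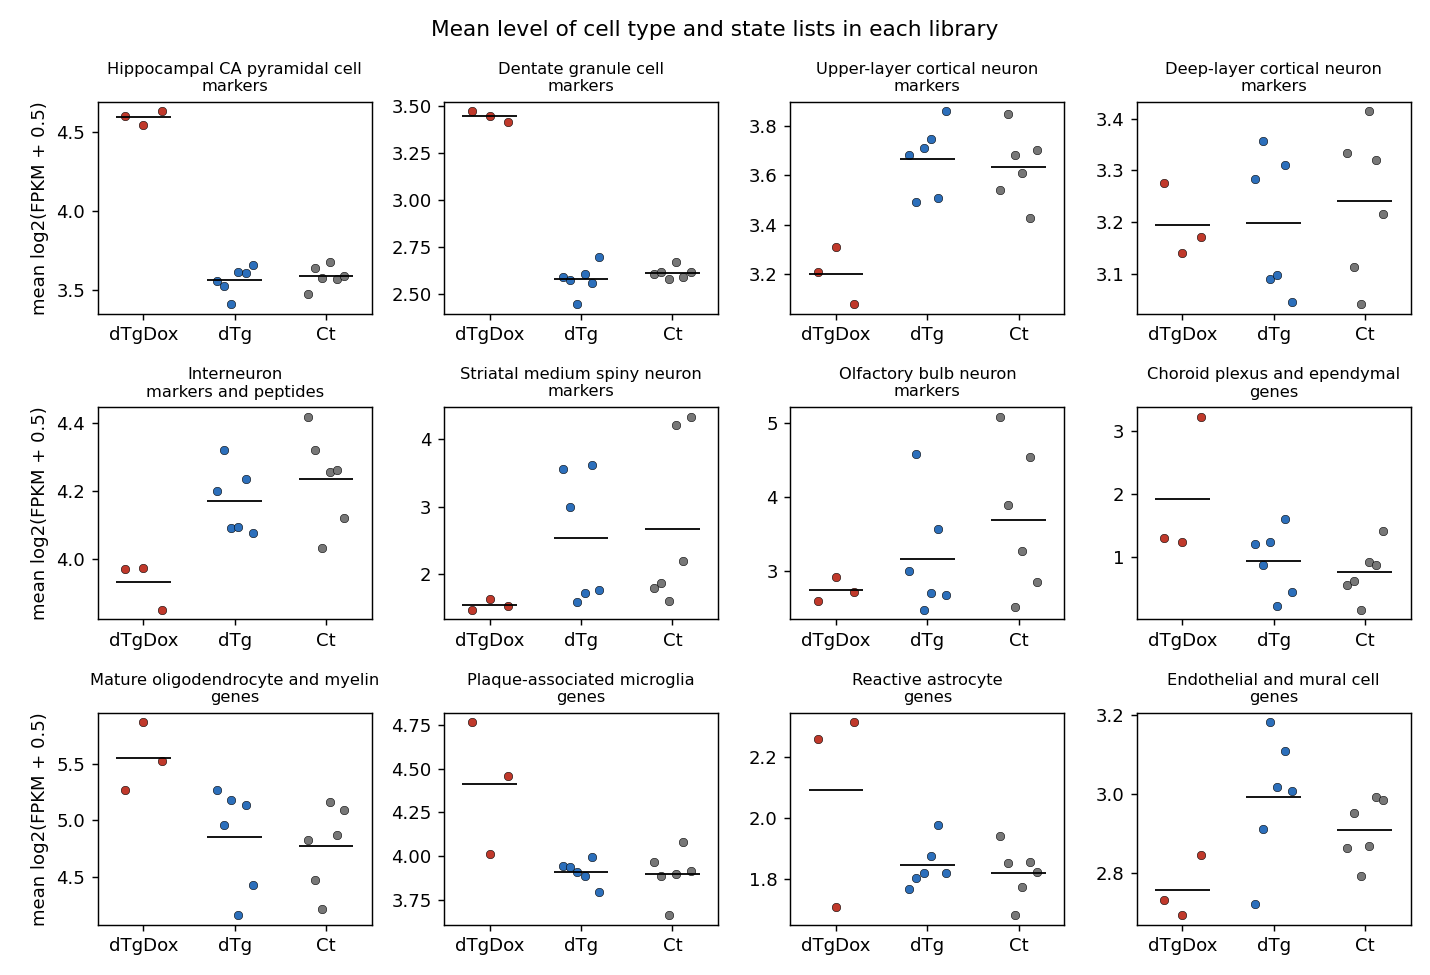
Mean log2(FPKM + 0.5) of the tested members of 12 lists of cell type or cell state markers in each library (3 dTgDox, 6 dTg, 6 Ct; the bar is the group mean; each panel has its own axis). The dTgDox libraries lie above all others for the CA and dentate markers and below all others for the upper-layer and interneuron markers, while striatal and olfactory markers vary widely within dTg and Ct.

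Upper-layer cortical markers were called lower more often than all genes tested, and deep-layer markers moved both ways. Of 25 upper-layer markers 9 fell (36%, against 8.59% of all genes), 2 rose and 14 were not called, with a median of -0.42. Lamp5, a vesicle-sorting protein of upper-layer and neurogliaform neurons, had 38.9, 60.99 and 27.1 FPKM in dTgDox, against 99.9 to 192 FPKM (median 131) in dTg. The groups did not overlap. Stard8, a protein with a lipid-binding START domain, fell by 2.08 log2 units, Kcnh5, a voltage-gated potassium channel, by 1.53 and Pou3f2, a factor of upper-layer identity, by 1.41. Lpl, a lipase also made by activated microglia, was 1 of the 2 that rose (2.04). Deep-layer markers had 6 of 32 higher (18.8%, against 8.63% of all genes) and 5 lower (15.6%), with a median of 0.20. Without dTgDox replicate 1 only 2 were higher. Among the deep-layer markers Tbr1, a layer 6 transcription factor, and Scube1 differed by -1.16 and -1.65, and Hs3st4, a heparan sulfate sulfotransferase, by 1.09.

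The largest decreases by size were not confined to the layer lists. Mef2c (ENSMUSG00000005583, chr13:83504034-83667080), a transcription factor of cortical excitatory neurons that restrains synapse number, had 46.7, 43.2 and 34.4 FPKM in dTgDox, against 157 to 249 FPKM (median 169) in dTg and 152 to 253 FPKM (median 172) in Ct. The highest dTgDox library lay far below the lowest untreated one, and the log2 difference was -2.15 (SE 0.16, adjusted p 3.6e-05). Cpne5 (ENSMUSG00000024008, chr17:29155556-29238167), a calcium-dependent membrane-binding protein, had 11.8, 15.3 and 10.7 FPKM in dTgDox, against 45.1 to 76.04 FPKM (median 58.5) in dTg, a difference of -2.20 (SE 0.15). Tnnc1 (ENSMUSG00000091898, chr14:31208312-31211729), the slow and cardiac troponin C, had 2.07, 2.37 and 1.57 FPKM in dTgDox, against 8.44 to 31.8 FPKM (median 21.1) in dTg, the lowest difference of all such genes at -2.96 (SE 0.38). Other decreases were Rasgef1c, a Ras exchange factor (-2.50), Hkdc1, a hexokinase-like enzyme (-2.48), Myl4, an atrial myosin light chain (-2.39), Igfn1 (-2.24), Hspb3, a small heat shock protein (-2.13), Abi3bp, a matrix protein (-2.15), and the T-cell receptor beta constant segments Trbc2 (-2.33) and Trbc1 (-2.06). Abi3bp lost its call without dTgDox replicate 1 or 2.

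Other regional markers were more variable. Of 24 striatal markers 4 fell (16.7%, against 8.59% of all genes) and 0 rose. However, their mean log2 level ranged over 1.58 to 3.62 within dTg alone, against 1.47 to 1.62 in dTgDox. Pdyn, the prodynorphin gene, fell, with 4.85, 5.29 and 3.51 FPKM in dTgDox, against 9.97 to 19.6 FPKM (median 11.8) in dTg. The count of striatal markers lower was 2 without dTgDox replicate 3. Of 34 interneuron markers and peptides 6 fell (17.65%) and 3 rose (8.82%, near the 8.63% of all genes). The neuropeptide genes Npy, Vip and Tac2 differed by -1.27, -1.11 and -1.08, with dTgDox below all 6 dTg libraries in each. The part of dissection in these regional differences was not tested.

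Most immediate-early transcription factors, which neuronal firing switches on, were not called. Of 28 immediate-early transcription factors 4 fell (14.3%, against 8.59% of all genes), 1 rose and 23 were not called, and the median difference was -0.84. Their mean log2 level was 2.85 to 2.90 in dTgDox, against 2.89 to 4.56 in dTg. Egr1 (ENSMUSG00000038418, chr18:34859823-34864984), the zinc finger factor induced by synaptic activity, had 21.1, 30.9 and 21.3 FPKM in dTgDox, against 53.9 to 219 FPKM (median 109.8) in dTg and 78.05 to 129.6 FPKM (median 118) in Ct. All 3 dTgDox libraries were below the lowest untreated library, while the dTg libraries were widely spread. The log2 difference was -2.16 (SE 0.44, adjusted p 0.012), and the call was lost without dTgDox replicate 3. Fos, the best known activity marker, had 4.73, 5.07 and 4.99 FPKM in dTgDox, against 7.697 to 78.7 FPKM (median 28.7) in dTg and 11.6 to 42.1 FPKM (median 23.2) in Ct. Its dTgDox values were nearly equal and below every other library, but with this spread in dTg the difference of -2.14 had an SE of 0.73 and an adjusted p of 0.08. Arc, a postsynaptic activity gene, overlapped, with 20.9, 27.5 and 20.02 FPKM in dTgDox, against 18.2 to 266 FPKM (median 89.8) in dTg (adjusted p 0.14), and Fosb had an adjusted p of 0.25. Of these, Fos, Arc and Fosb were chosen after their values were seen.

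The other called factors were Klf10, which fell by 0.93, Nr4a1, an orphan nuclear receptor (-1.98), Npas4, a neuron-specific activity factor (-2.15), and Jun, which rose by 0.87. The call for Nr4a1 was lost without any single dTgDox library and without dTg replicate 2, 3 or 5, that for Npas4 without any dTgDox library and without dTg replicate 2, 3, 4 or 5, and that for Jun without dTgDox replicate 1 or 3 and without dTg replicate 3, 5, 6 or 7. The number of immediate-early factors called lower was 1 without dTgDox replicate 3 and 13 without dTg replicate 6, and was 11 when the Ct libraries shared in the estimate of spread.

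Downstream of the MAP kinase cascade, 8 of 21 feedback genes fell (38.1%, against 8.59% of all genes) and 1, Dusp4, rose (4.76%, against 8.63%). Dusp14 (ENSMUSG00000018648, chr11:84048041-84069261), a phosphatase of MAP kinases, had 18.1, 17.7 and 16.9 FPKM in dTgDox, against 46.8 to 67.8 FPKM (median 52.2) in dTg, a difference of -1.60 (SE 0.11, adjusted p 2e-05), with a wide gap between groups. Rgs4, a brake on G protein signals, had 57.2, 60.3 and 66.1 FPKM in dTgDox, against 136 to 219.7 FPKM (median 176) in dTg. Trib1 and Etv5 differed by -1.47 and -0.73, and the call for Etv5 was lost without dTgDox replicate 3. Of 32 later activity-regulated genes 12 fell (37.5%), Rgs4 again among them, and 3 rose (9.38%, near the 8.63% of all genes). Those lower included Kcnj4, an inward rectifier channel (-1.13), and Bmp3 (-1.59), while Nptx1, a secreted pentraxin that clusters AMPA receptors, was 0.82 higher. At their lowest, these lower counts were 3 for feedback genes, without dTgDox replicate 3, and 6 for the later genes, without replicate 2.

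**Figure D3:**
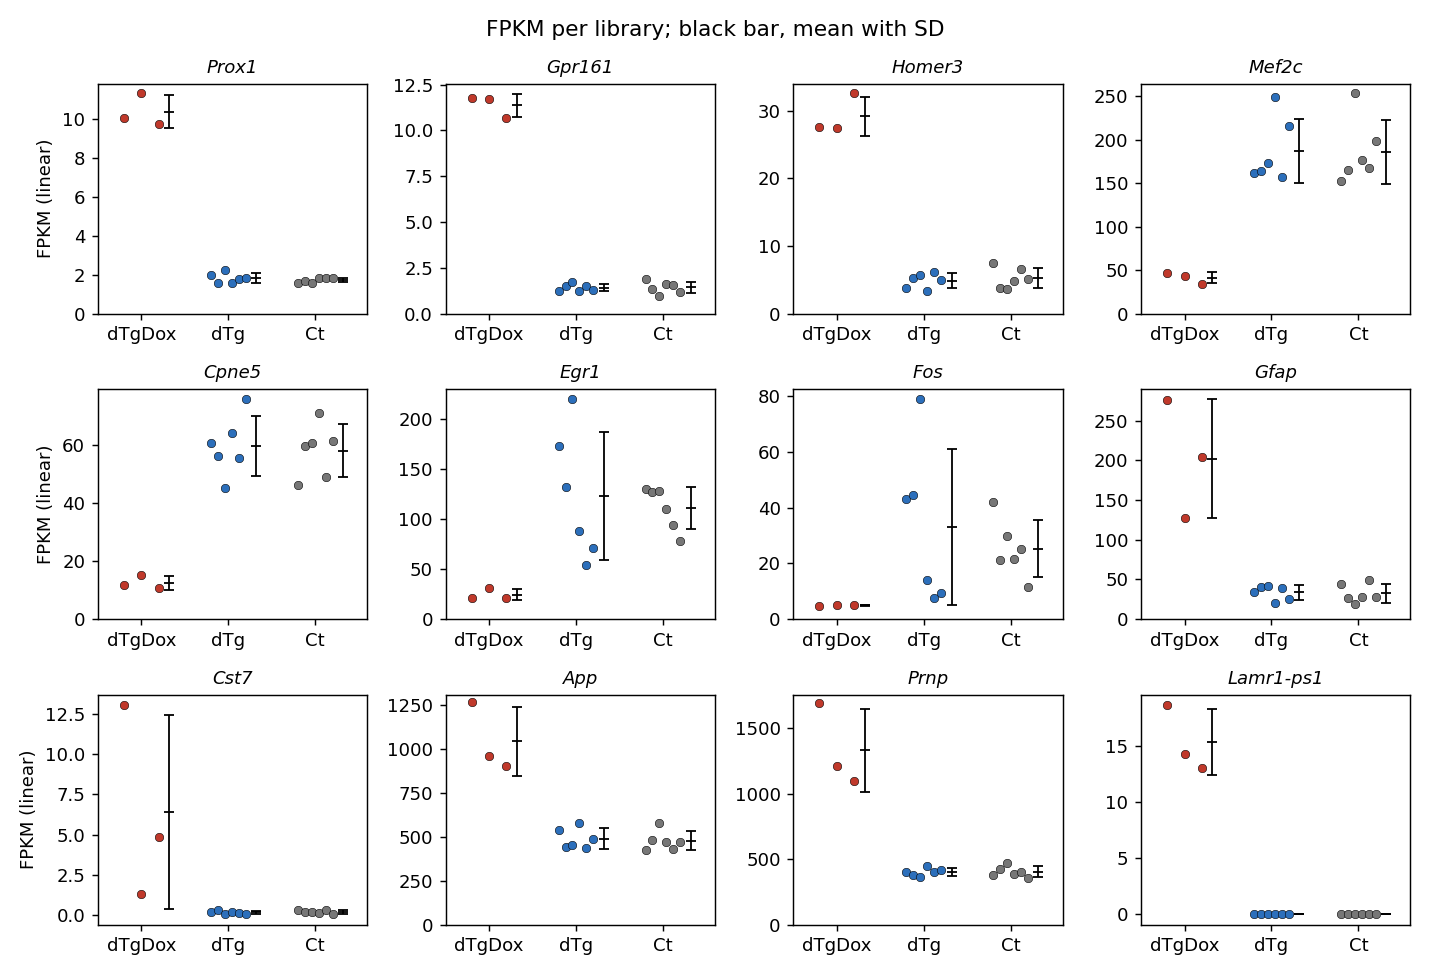
FPKM of 12 genes in each library (linear axis for each gene; 3 dTgDox, 6 dTg and 6 Ct libraries; black bars give mean and SD). For Prox1, Gpr161, Homer3, Mef2c, Cpne5, Egr1, Fos, Gfap, Cst7, App, Prnp and Lamr1-ps1 alike, all 3 dTgDox points lie to 1 side of all 12 untreated points, and for Fos and Egr1 the dTg points are widely spread.

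Ion channel genes were lower more often than all genes tested. Potassium channel genes had 25 of 71 tested members lower (35.2%, against 8.59% of all genes) and 7 higher, calcium channel genes 9 of 22 lower (40.9%) and 1 higher, and sodium channel genes 5 of 15 lower (33.3%) and 2 higher. Their median differences were -0.28, -0.33 and -0.26. Without dTgDox replicate 3 the lower counts were 14 for potassium and 2 for sodium channels, and without replicate 1 it was 6 for calcium channels. Kcnf1 (ENSMUSG00000051726, chr12:17172100-17176888), a silent subunit that modifies Kv2 channels, had 13.1, 13.7 and 10.5 FPKM in dTgDox, against 31.3 to 44.5 FPKM (median 35.6) in dTg, a difference of -1.51 (SE 0.13). Another such subunit, Kcng2 (ENSMUSG00000059852, chr18:80294546-80364254), went the opposite way, with 18.4, 16.8 and 17.5 FPKM in dTgDox, against 2.6 to 5.499 FPKM (median 2.99) in dTg and a difference of 2.23 (SE 0.20). Neither gene overlapped between groups. Dpp10, an auxiliary subunit of Kv4 channels, fell by 1.34.

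Of the sodium channel genes, Scn1a, the subunit mutated in Dravet syndrome, had 15.9, 17.1 and 16.5 FPKM in dTgDox, against 22.6 to 32.5 FPKM (median 27.1) in dTg (-0.72, SE 0.11), with no overlap. The auxiliary subunit Scn4b was -1.68 lower, a call lost without dTgDox replicate 1 or 3, and Scn3b was 0.95 higher. The channel-binding factors Fgf12 and Fgf13 differed by -0.67 and 0.51. Among calcium channel genes, Cacnb4 and Cacng3 differed by -0.97 and -1.08, and Cacng8, whose protein is an AMPA receptor partner abundant in hippocampus, by 0.83.

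**Figure D4:**
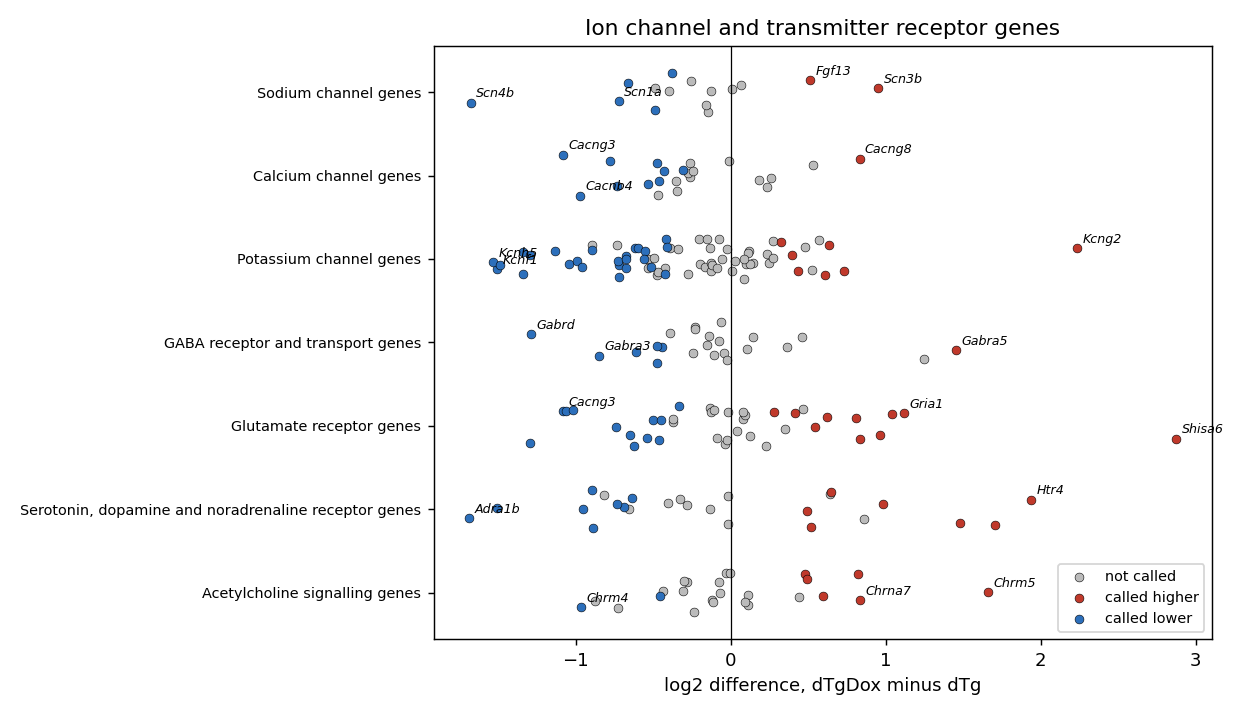
Log2 difference, dTgDox minus dTg, for each tested member of 7 families of ion channel and transmitter receptor genes (red, called higher; blue, called lower; grey, not called; up to 4 called members per family are named). Channels and GABA genes lie mostly left of 0, and glutamate and monoamine receptor genes are split, with Shisa6 at 2.87 the highest.

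Transmitter receptors split by subunit. Of 39 glutamate receptor genes 10 rose (25.6%, against 8.63% of all genes) and 12 fell (30.8%, against 8.59%). Gria1 (ENSMUSG00000020524, chr11:57011387-57330244), an AMPA receptor subunit, had 149, 149.7 and 156 FPKM in dTgDox, against 55.7 to 80.4 FPKM (median 72.4) in dTg, a difference of 1.12 (SE 0.10), with no overlap. The AMPA receptor partners Cnih2 and Shisa6 differed by 1.04 and 2.87, and the synaptic adhesion protein Lrrtm1 by 0.81. Of 23 GABA receptor and transport genes 6 fell (26.1%) and 1, Gabra5, rose (4.35%). That extrasynaptic alpha5 subunit, enriched in hippocampus, had 57.6, 61.03 and 66.1 FPKM in dTgDox, against 16.9 to 29.7 FPKM (median 21.9) in dTg. The delta subunit Gabrd had 10.8, 16.3 and 10.5 FPKM in dTgDox, against 25.1 to 36.2 FPKM (median 30.99) in dTg, and Gabra3 differed by -0.85. The lower count among GABA genes was 2 without dTgDox replicate 1. Glutamate receptor genes had 6 higher without replicate 1 and 5 lower without replicate 3.

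Of 25 receptors for serotonin, dopamine, noradrenaline and histamine, 7 rose (28%, against 8.63% of all genes) and 8 fell (32%, against 8.59%). At the lowest 4 were higher, without dTgDox replicate 1, and 5 lower, without replicate 3. Leaving aside Htr4 and Htr5b, which passed the filter only through dTgDox, 5 of 23 rose. Htr4 and Htr5b, serotonin receptors, were 1.94 and 1.48 higher, and Adra1b, an adrenergic receptor, and Htr5a differed by -1.69 and -0.69. In the presynaptic terminal, 12 of 40 vesicle and active zone genes fell (30%) and 2 rose, and the lower count was 6 without dTgDox replicate 3. Stx1a, a fusion protein of synaptic vesicles, had 63.7, 60.9 and 48.03 FPKM in dTgDox, against 118 to 182 FPKM (median 162) in dTg. The related calcium sensors Doc2a and Doc2b moved apart, by -1.61 and 2.43. Of 22 genes for calmodulin-dependent kinases, 8 fell (36.4%) and 4 rose (18.2%), with Camkk2 at -1.23, Camk1 at -0.63, Camkk1 at 0.57 and Camk2b at 0.54. The lower count was 5 without dTgDox replicate 3.

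The cholinergic genes bear on the series title. Of 25 tested, 6 rose (24%, against 8.63% of all genes) and 2 fell (8%, near the 8.59% of all genes), with a median of -0.07. Leaving aside Chrm5, which passed the filter only through dTgDox, 5 of 24 rose. Chrna7 (ENSMUSG00000030525, chr7:63098692-63212569), which encodes the nicotinic alpha7 subunit, had 11.1, 7.997 and 13.03 FPKM in dTgDox, against 3.69 to 7.16 FPKM (median 5.94) in dTg. The groups were separated by a small margin, the log2 difference was 0.83 (SE 0.20, adjusted p 0.018), and the call was lost without dTgDox replicate 1 or 3. Chrna5, an accessory nicotinic subunit, had 2.38, 3.297 and 1.63 FPKM in dTgDox, against 0.801 to 1.296 FPKM (median 1.23) in dTg, and its call was lost without dTgDox replicate 1 or 2. Chrm5, a muscarinic receptor, was near 0 in dTg, with 1.57, 0.788 and 1.75 FPKM in dTgDox, against 0.0242 to 0.111 FPKM (median 0.0837) in dTg. Ly6h, a membrane protein that limits nicotinic receptor traffic, rose by 0.48, and Chrm4, an inhibitory muscarinic receptor, fell by 0.97. Ache, the enzyme that hydrolyses acetylcholine, had 24.3, 32.5 and 24.99 FPKM in dTgDox, against 25.99 to 32.1 FPKM (median 29.6) in dTg. These values overlapped, with a difference of -0.11 (SE 0.11, adjusted p 0.5). The count of cholinergic genes higher was 2 without dTgDox replicate 1.

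A few genes of reactive astrocytes rose, while most were not called. Gfap (ENSMUSG00000020932, chr11:102887336-102900912), the intermediate filament of astrocytes, had 276, 127 and 204 FPKM in dTgDox, against 20.01 to 41.95 FPKM (median 36.6) in dTg and 19.02 to 49 FPKM (median 27.5) in Ct, a difference of 2.55 (SE 0.30, adjusted p 0.00098). The serpin gene Serpina3n, a mark of reactive astrocytes, had 43.04, 27.5 and 42.9 FPKM in dTgDox, against 2.53 to 9.698 FPKM (median 6.39) in dTg. For both, replicate 2 was the lowest of the dTgDox libraries and still above every dTg library. Cd109 rose by 1.36 and the complement gene C4b by 1.47, and the call for C4b was lost without dTgDox replicate 1 or 3. Of 33 tested reactive astrocyte genes 6 rose (18.2%, against 8.63% of all genes), 0 fell and 27 were not called, and the list's median was -0.03. Leaving aside Cd109 and Timp1, which passed the filter only through dTgDox, 5 of 31 rose. The list's mean log2 level was 1.71 to 2.31 in dTgDox, against 1.77 to 1.98 in dTg. The count was 4 without dTgDox replicate 1 and 9 without replicate 2.

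In microglia, 12 of 29 genes of plaque-associated cells rose (41.4%, against 8.63% of all genes) and 0 fell, with a median of 0.50. Leaving aside 4 members that passed the filter only through dTgDox, Cst7 and Clec7a among them, 9 of 25 rose. This list was drawn up by an earlier pass over these data, so its direction is not independent evidence. Cst7 (ENSMUSG00000068129, chr2:150570415-150578944), a cystatin made by microglia around plaques, had 13.1, 1.29 and 4.86 FPKM in dTgDox, against 0.083 to 0.319 FPKM (median 0.149) in dTg and 0.0445 to 0.335 FPKM (median 0.17) in Ct, a difference of 2.94. Replicate 1 of dTgDox was by far the highest and replicate 2 the lowest, and without replicate 1 the difference was 2.23, without replicate 2 it was 3.69. Clec7a, a phagocytic receptor, followed the same order, with 4.33, 0.506 and 1.12 FPKM in dTgDox, against 0.0579 to 0.285 FPKM (median 0.161) in dTg. Its difference of 1.58 was 0.94 without replicate 1, and its call was lost without replicate 3. Fth1, the ferritin heavy chain, rose by 0.71 and Apoe by 0.38, while Ctsd, a lysosomal protease, had 378, 202 and 241 FPKM in dTgDox, against 159 to 176 FPKM (median 175) in dTg. The receptor Trem2 and its adaptor Tyrobp were not called. They had 25.5, 12.3 and 15.5 FPKM and 84.6, 29.96 and 46.6 FPKM in dTgDox, against 10.1 to 12.7 FPKM (median 11.2) and 28.1 to 35.4 FPKM (median 31.4) in dTg. Both were chosen after their values were seen. The count of list genes higher was 8 without dTgDox replicate 3 and 19 without replicate 2, and the call for Ctsd was lost without replicate 3.

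Of 10 amyloid precursor and prion genes 2, App and Prnp, rose (20%, against 8.63% of all genes) and 1 fell (10%, against 8.59%). App (ENSMUSG00000022892, chr16:84949685-85173766), the amyloid precursor protein gene, had 1268, 961 and 904 FPKM in dTgDox, against 438 to 581 FPKM (median 471) in dTg and 428 to 581 FPKM (median 472) in Ct, a difference of 1.08 (SE 0.12, adjusted p 0.00039). Prnp (ENSMUSG00000079037, chr2:131909928-131938429), the prion protein gene, had 1688, 1208 and 1095 FPKM in dTgDox, against 364 to 451 FPKM (median 401) in dTg and 356 to 473 FPKM (median 396) in Ct, a difference of 1.70 (SE 0.12, adjusted p 2.7e-05). For both genes replicate 1 of dTgDox was the highest and replicate 3 the lowest, and the lowest was still far above all 12 untreated libraries. Lamr1-ps1 (ENSMUSG00000081229, chr2:131904086-131904959), a ribosomal protein pseudogene that lies just before Prnp on the same chromosome, had 18.6, 14.3 and 12.99 FPKM in dTgDox and was listed at 0 in all 6 dTg and all 6 Ct libraries, so no fold is given. The paralogue Aplp2 fell by 0.39. Lamr1-ps1 was chosen after its values were seen and passed the filter on low values only through dTgDox. The labels name no App or Prnp transgene in any group. Whether the dTgDox mice carried another allele was not tested, so these differences cannot be assigned to doxycycline.

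Oligodendrocyte and border tissue genes differed between libraries. All 32 myelin genes had a positive difference, with a median of 0.71, but 5 were called higher (15.6%, against 8.63% of all genes) and 27 were not called. The list's mean log2 level was 5.27 to 5.87 in dTgDox, against 4.16 to 5.27 in dTg. Anln and Ermn were 1.66 and 1.14 higher, and the call for Ermn was lost without any single dTgDox library and without dTg replicate 3, 6 or 7. The count was 1 without dTg replicate 7. The choroid plexus gene Ttr, chosen after its values were seen, had 18.3, 38.4 and 1907 FPKM in dTgDox, against 0.407 to 120.0 FPKM (median 31.1) in dTg and 0.661 to 86.7 FPKM (median 1.76) in Ct, so dTgDox replicate 3 alone stood far apart. Kl, a choroid plexus and kidney gene, rose by 2.40, and Dcn, a fibroblast proteoglycan, by 2.16. The Kl difference was 1.76 without dTgDox replicate 3, and that of Dcn was 2.89 without replicate 2 and lost its call without replicate 1 or 3. Without dTgDox replicate 3 and dTg replicate 7 together, 1275 genes were called. In that fit 13 CA and 10 dentate markers were higher and 6 upper-layer markers lower.

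**Figure D5:**
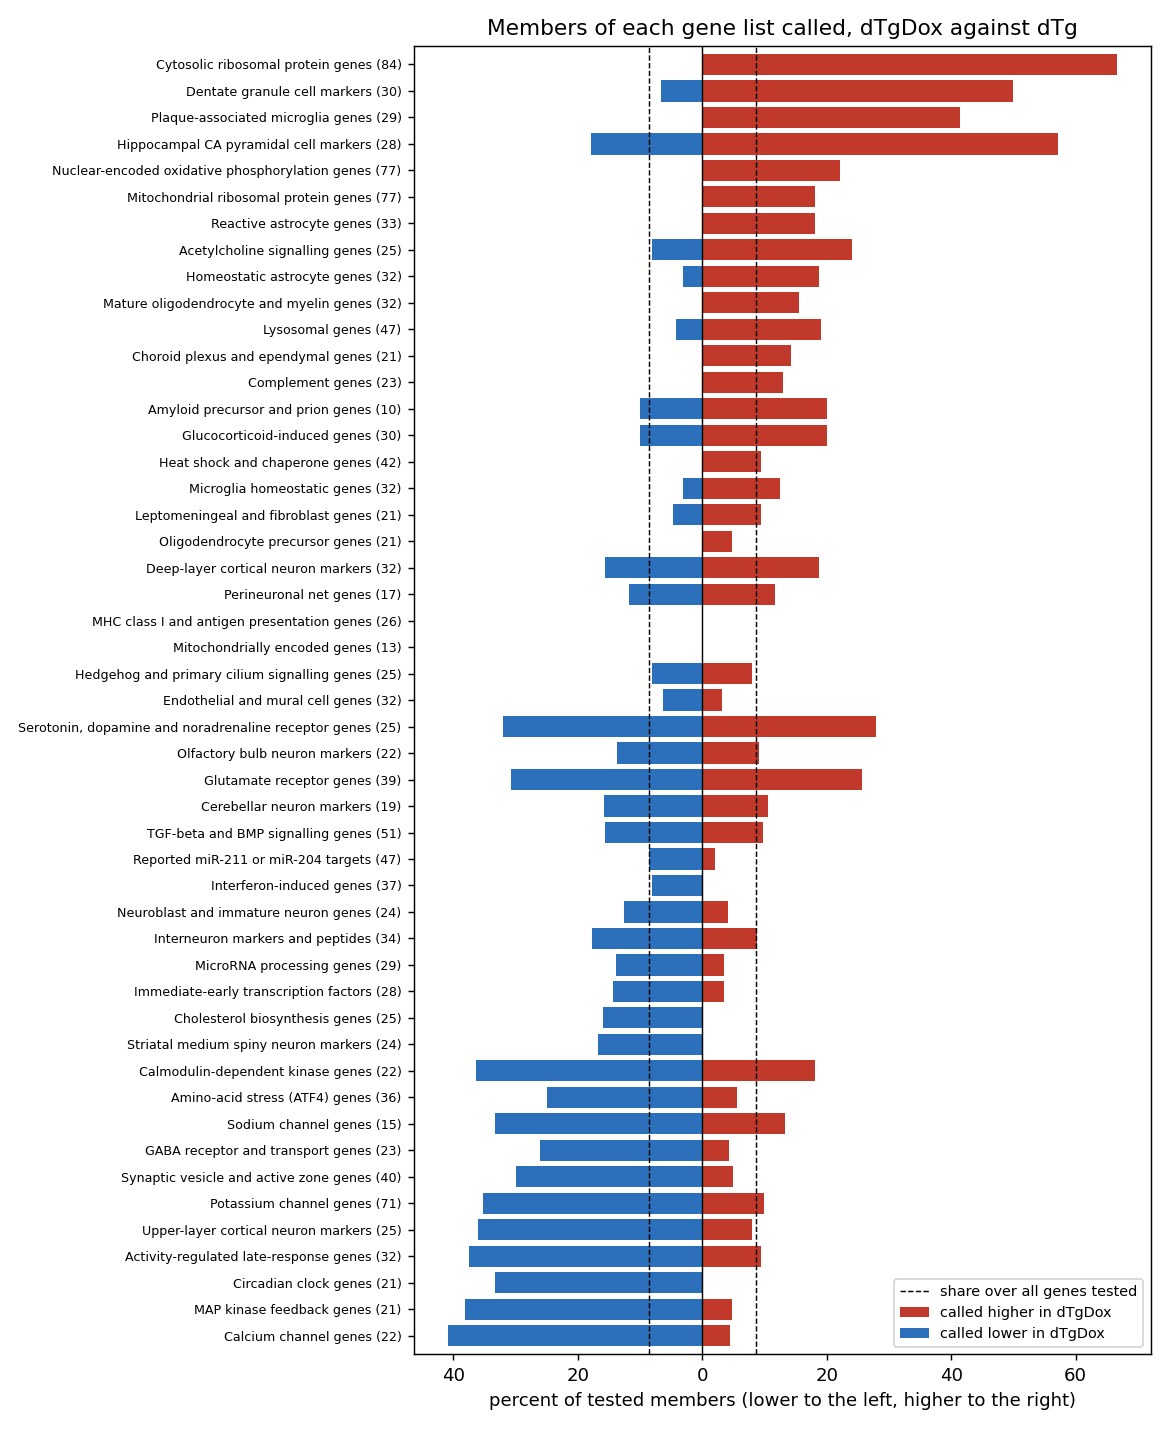
Share of tested members called higher (red, to the right) or lower (blue, to the left) in dTgDox against dTg, for the lists with at least 10 tested members (number tested in brackets). Dashed lines mark the share over all genes, 8.63% higher and 8.59% lower. Cytosolic ribosomal protein, hippocampal and plaque-associated microglia genes reach furthest to the right, and calcium channel, MAP kinase feedback and late-response genes furthest to the left.

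Genes of protein synthesis were slightly higher. Of 84 cytosolic ribosomal protein genes 56 rose (66.7%, against 8.63% of all genes) and 0 fell, with a median difference of 0.32. In 67 of the 84 all 3 dTgDox libraries lay above all 6 dTg libraries, as they did in 11.6% of all genes. Without dTgDox replicate 1 the count was 17. Rplp1 had 1233, 1279 and 1200.0 FPKM in dTgDox, against 843 to 1074 FPKM (median 899) in dTg, a difference of 0.43 (SE 0.08), and Rpl10 rose by 0.35. Many ribosomal protein genes have near-identical pseudogenes that can share reads, and 147 of 1269 tested processed pseudogenes were higher and 27 lower, so these values are uncertain. Mitochondrial ribosomal proteins had 14 of 77 higher (18.2%, against 8.63% of all genes) and 0 lower. Nuclear genes of oxidative phosphorylation had 17 of 77 higher (22.1%) and 0 lower. Uqcr11, Ndufab1 and Cox8a, subunits of respiratory complexes, rose by 0.30, 0.30 and 0.31, which are small steps. Without dTgDox replicate 1 the mitochondrial ribosomal count was 0, and without replicate 2 the oxidative phosphorylation count was 6.

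Stress and hormone programs differed in their share of calls, read here against 8.63% higher and 8.59% lower over all genes. Of 36 ATF4 targets of amino-acid stress 9 fell (25%) and 2 rose. Slc7a1, a cationic amino acid transporter, and Pycr1, a proline synthesis enzyme, differed by -0.52 and -0.82, and Cebpb and Gpt2 by 0.73 and 0.49. The lower count was 3 without dTgDox replicate 3. Of 30 glucocorticoid-induced genes 6 rose (20%) and 3 fell (10%). Leaving aside Plin4, which passed the filter only through dTgDox, 5 of 29 rose. Fkbp5, a chaperone that dampens the glucocorticoid receptor, had 18.6, 17.2 and 16.9 FPKM in dTgDox, against 5.81 to 8.96 FPKM (median 7.55) in dTg, the metallothionein Mt1 rose by 0.57, and Cdkn1a, a cell cycle inhibitor, fell by 1.53. Of these, 4 were higher without dTgDox replicate 1. Of 21 clock genes 7 fell (33.3%) and 0 rose, with Hlf and Cry2 at -0.52 and -0.42, and 3 were lower without dTg replicate 7. The hour of collection is not in the labels. Cholesterol synthesis had 4 of 25 genes lower (16%) and 0 higher, and 1 lower without dTgDox replicate 2. Interferon-induced genes had 3 of 37 lower (8.11%, near the 8.59% of all genes) and 0 higher, the lower ones being Apobec3 (-1.05), Gbp3 (-0.81) and Gbp4 (-0.87). The call for Gbp4 was lost without any single dTgDox library and without dTg replicate 3, 4 or 5.

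Of the signalling lists, Hedgehog and cilium genes were called at shares near those of all genes, while the others leaned lower. Of 51 TGF-beta and BMP genes 5 rose (9.8%) and 8 fell (15.7%), and 1 was higher without dTg replicate 2. Leaving aside Grem1, which passed the filter only through dTgDox, 4 of 50 rose. Tgfb2, a TGF-beta ligand, had 10.7, 10.5 and 15.3 FPKM in dTgDox, against 2.37 to 3.94 FPKM (median 3.15) in dTg, a difference of 1.82 (SE 0.17), with no overlap. Of 25 Hedgehog and cilium genes 8% rose and 8% fell, near the 8.63% and 8.59% of all genes. Of these 2 rose, Gpr161 and Smo, the Hedgehog signal transducer (0.74), and 2 fell, among them the coreceptor Boc (-0.99). Of 29 genes for microRNA processing 1 rose (3.45%) and 4 fell (13.8%), with Adar, an RNA-editing enzyme, at -0.48, and 1 was lower without dTgDox replicate 1.

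Genes with miR-211 sites were examined in 1 3′UTR per gene, the longest in GENCODE M21 (GRCm38), on the strand of the message. The 8mer site AAAGGGAA pairs with the whole seed and adds an A, and it contains a shorter site that lacks its last base (AAAGGGA), another that lacks its first base (AAGGGAA), and the shortest, which lacks both (AAGGGA). It was present in 1076 of 14192 tested genes with a 3′UTR (7.58%). Of these, 81 were higher (7.53%) and 149 lower (13.8%), with a median of -0.035. Of 8525 genes without even the shortest site, 824 were higher (9.67%) and 732 lower (8.59%), with a median of 0.0032. The site-bearing genes have longer 3′UTRs, with a median of 2787 bases against 880. Among 3′UTRs of 2000 to 4000 bases, 36 of 445 with an 8mer were higher and 66 lower (14.8%), against 118 of 1380 without a site higher and 150 lower (10.9%).

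Of 47 tested genes reported as targets of miR-211 or miR-204, 1 rose (2.13%, against 8.63% of all genes) and 4 fell (8.51%, against 8.59%), with a median of 0.02, and 2 fell without dTgDox replicate 1. In the 21 with an 8mer site, 0 rose and 2 fell. The sites of the 2 that fell, and of 2 known targets that were not called, are shown with the 8mer in capitals, 5′ to 3′ on the message strand.
Pou3f2: aaagggcgttaAAAGGGAAaacactttttt
Chd5: gttggggtacaAAAGGGAAaccatgaaatt
Tgfbr2: ctactctacatAAAGGGAAagttttattct
Bcl2: tatttactgccAAAGGGAAatatcatttat
Pou3f2 (ENSMUSG00000095139, chr4:22482780-22488366), also an upper-layer marker, had 2.52, 3.15 and 2.39 FPKM in dTgDox, against 7.35 to 8.72 FPKM (median 7.83) in dTg, a difference of -1.41 (SE 0.10, adjusted p 2.4e-05). The remodelling enzyme Chd5 had 28.9, 30.02 and 27.3 FPKM in dTgDox, against 35.5 to 42.2 FPKM (median 39.4) in dTg, a difference of -0.44 (SE 0.07, adjusted p 0.0016). Both genes had every dTgDox library below every dTg library. Tgfbr2, a TGF-beta receptor, had 5.11, 3.44 and 4.9 FPKM in dTgDox, against 3.58 to 4.76 FPKM (median 4.08) in dTg, and Bcl2, a survival factor, 2.298, 1.97 and 2.395 FPKM in dTgDox, against 2.24 to 3.22 FPKM (median 2.62) in dTg. Neither was called (adjusted p 0.71 and 0.24), and both were chosen after their values were seen. The reported target that rose was Chrna7, whose annotated 3′UTR holds no site. Dnm3 and Meis2 made up the rest of those that fell, at -0.25 and -1.52, with calls lost without dTgDox replicate 1 for Dnm3 and for Meis2 without any single dTgDox library and without dTg replicate 2, 5 or 7. Meis2 is also 1 of 22 tested olfactory bulb markers, of which 3 fell (13.6%) and 2 rose (9.09%). The mean log2 level of those markers ranged over 2.47 to 4.58 within dTg alone.

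Finally, genes beside a reported insertion site of a Camk2a-tTA driver line on chromosome 12 were read in each library. None of the 5 was called, but without dTg replicate 7 a total of 4 were called higher and 1, Vipr2, lower. Esyt2 (ENSMUSG00000021171, chr12:116281196-116391050), a membrane tether, had 12, 10.1 and 12.1 FPKM in dTgDox, against 5.39 to 12.4 FPKM (median 5.798) in dTg and 5.16 to 9.99 FPKM (median 5.68) in Ct. All 3 dTgDox libraries stood near the top value of each untreated group, which came from dTg replicate 7 and Ct replicate 2. Ptprn2, Wdr60 and Ncapg2 also had their top dTg value in replicate 7, with 77.4, 70.95 and 75.1 FPKM, 4.09, 4.204 and 4.34 FPKM and 1.11, 0.827 and 1.001 FPKM in dTgDox and tops of 98.2, 4.92 and 1.06 FPKM in dTg replicate 7. Vipr2, a peptide receptor, had 0.268, 0.217 and 0.838 FPKM in dTgDox, against 0.304 to 12.8 FPKM (median 4.96) in dTg.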

How the data were processed

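Each deposited file gives 1 FPKM value, made by the authors, for each of 46073 Ensembl genes. FPKM scales fragments by transcript length and library size. The submitters' processing notes name TopHat2 and DESeq; versions, genome build and quantifier are not given in the sources consulted. GENCODE M21 (GRCm38) supplied symbols, for 45139 identifiers, and coordinates. Counts were not used here, so levels carry no counting interval.

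Values were compared as log2(FPKM + 0.5) with limma 3.58.1 (R 4.3.3) in 3 dTgDox and 6 dTg libraries, keeping a gene if 3 or more of the 9 reached 0.5 FPKM. Moderation was robust with a trend on mean level, p-values were two-sided, and a call needed a Benjamini-Hochberg adjusted p under 0.05. The script was tested on simulated data. The added 0.5 pulls differences of low genes toward 0.

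The libraries compared, the 50 gene lists and the named genes were chosen with earlier results of these data known. The rule for names took the 15 highest and 15 lowest called differences (mean log2 level 1 or more, informative symbol), the 10 smallest p-values, up to 4 called members of each list, and a few fixed genes. Some genes the rule names are not reported here, and genes outside the rule are marked in the text.

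Alternatives covered pseudocount, filter, scaling, weights, moderation, gene class, Ct in the fit, each library left out, a replicate block and the way values step.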

Additional observations from a re-analysis of the deposited data

Results flagged for a closer look

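The level of each named gene was checked within the 6 dTg libraries, and within the 6 Ct libraries where Ct levels are given, for a library whose gap to its nearest neighbour was large against the whole range (Dixon's test). Of 162 such sets 20 were marked, 13 in dTg and 7 in Ct, where chance marks about 1 in 20 of independent, normally spread sets. The check used FPKM without logs, and the genes share libraries and were chosen with earlier results known. No excess over chance can therefore be read from the count.

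The genes at the driver insertion site were marked in the same library of each group. In dTg replicate 7, Esyt2 had 12.4 FPKM, Ptprn2 98.2 FPKM, Wdr60 4.92 FPKM and Ncapg2 1.06 FPKM, where the next highest dTg values were 6.13, 49.6, 2.84 and 0.508 FPKM. In Ct replicate 2 these genes had 9.99, 90.3, 5.11 and 0.887 FPKM, where the next highest Ct values were 5.97, 49.5, 3.085 and 0.645 FPKM. The cause was not tested.

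Some hippocampal marker genes stood out in single untreated libraries. C1ql2 had 1.36 FPKM in dTg replicate 4 and 1.025 FPKM in Ct replicate 4. Cabp7 had 16.7 FPKM in dTg replicate 4, Spink8 6.82 FPKM in dTg replicate 5, and Npy2r 1.47 FPKM in dTg replicate 6. These 5 values lay below the 3 dTgDox libraries for the same gene. Also in dTg replicate 6, Nts had 6.01 FPKM and Htr4 0.596 FPKM.

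The remaining marks were Ctsd at 159 FPKM and Ndufab1 at 167 FPKM in dTg replicate 7, both the lowest of their group, Cox8a at 755 FPKM in dTg replicate 4, App at 581 FPKM in Ct replicate 3, and Ttr, a choroid plexus gene, at 86.7 FPKM in Ct replicate 6, where the next highest Ct value was 3.56 FPKM.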

How the results depend on the processing

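Against 3183 genes called for dTgDox over dTg, changing pseudocount, filter, scaling, moderation, gene class, or adding Ct to the fit gave 2720 to 3596, and array quality weights gave 4291. With dTg replicate 1 kept, 724 were called, 446 higher (61.6% of calls, against 50.1%) and 278 lower, and 227 of the 724 were at least 2-fold. That library's file equals the NTg file and was described earlier as cerebellum-like, so this setting mixes unlike libraries. With the replicate block limma called 0 genes in either direction and 0 at 2-fold, while 3754 had an unadjusted p under 0.05 and all 3183 kept their direction. The groups share replicate numbers 2 and 3, whose libraries' deviations correlated at -0.024 and 0.075, and the labels do not tie them. Only these 2 numbers compare the groups in the block fit, which leaves almost nothing to estimate spread from. Its 0 calls therefore decide nothing. Leaving out 1 library in turn gave 1644 to 3223 genes changed, 763 to 1622 higher, 881 to 1617 lower and 415 to 555 at least 2-fold. Alternatives chosen after seeing the data follow. With the filter at 2 libraries, 1696 were called without dTgDox replicate 1 (829 higher, 867 lower) and 1740 without dTgDox replicate 3 (864 higher, 876 lower). Without dTgDox replicate 3 and dTg replicate 7, 1275 were called (602 higher, 673 lower). The 4 libraries with 0.5-read steps gave 1584 (692 higher, 892 lower), and the other 5 gave 127 (69 higher, 58 lower, 112 at least 2-fold).

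Of 4314 values of named genes under alternatives, 458 lost and 38 gained a call and 9 changed sign. The 458 include every called gene among those named under the replicate block, where 0 genes were called. Chd5, called lower, was at 0.0043 with dTg replicate 1 kept. The others were not called: Camk2a at 0.55 with dTg replicate 1 kept and 0.0496 with the replicate block, Ache at 0.21, Tyrobp at -0.0606 and Tgfbr2 at -0.26 among libraries without 0.5-read steps. Tgfbr2 spanned -0.0059 to 0.249 as 1 library was left out, and was -0.0042 without dTgDox replicate 3 and dTg replicate 7. The cause was not tested. Counting depth per gene is unknown, which limits what can be said of low genes.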

Other observations

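Other lists were also counted for dTgDox against dTg, where 8.63% of all genes were higher and 8.59% lower, and several counts moved when 1 library was left out. Of 32 homeostatic astrocyte genes 6 were higher and 1 lower, with 1 higher without dTgDox replicate 1 and 11 without dTg replicate 4. Of 32 homeostatic microglia genes 4 were higher and 1 lower, with 1 higher without dTgDox replicate 1 and 8 without dTgDox replicate 2. Of 47 lysosomal genes 9 were higher and 2 lower, with 2 higher without dTgDox replicate 3. Of 23 complement genes 3 were higher, and 0 without dTgDox replicate 1. Heat shock and chaperone genes had 4 of 42 higher, with 0 without dTgDox replicate 1 and 8 without dTg replicate 2.

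Of 24 neuroblast and immature neuron genes 3 were lower and 1 higher, and the lower count was 3 whichever library was left out. Of 17 perineuronal net genes 2 were lower and 2 higher, and the higher count was 0 without dTgDox replicate 1. Of 32 endothelial and mural cell genes 2 were lower and 1 higher, with a median log2 difference of -0.21, and 2 of the 32 had a positive difference.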
